A study of Homo sapiens with 2 samples.

Results

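The human kinesin genes were examined in HEK-293 cells overexpressing miR-204. The members were the probes, other than control spots, whose gene name on the array was KIF with a number and an optional letter A to C, or KIFC1 to KIFC3. These were 38 of the 30484 gene names and 61 of the 41000 probes. HEK-293, an established human embryonic kidney line, had been transfected for 48 h with a miR-204 mimic or with scrambled oligonucleotides as control, at a labelled dose of 75 nM, and no other allele or agent was named for either culture. Both RNAs were hybridized together on a 2-colour Agilent whole genome array, the miR-204 RNA in Cy5 on the first array and in Cy3 on the dye-swap array. The comparison addressed which genes are regulated by miR-204. The 2 arrays were counted as 1 replicate, because no second transfection is named. No test across conditions was therefore possible, and the values below carry the spread between the arrays, not between cultures. The experiment was a transient transfection of 1 line, and mature miR-204 was not analysed here, so its level in the transfected cells was not checked.

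Kinesins are motor proteins that bind microtubules and use ATP to move along them or to take their ends apart. The mitotic kinesins build the spindle, move chromosomes and organize the midzone where the cell divides. The transport kinesins carry vesicles, mitochondria and other cargo, and several of them are best known from axons and cilia. HEK-293 cells divide rapidly and also carry some neuronal features, so that genes of both classes can be read in them. A miRNA pairs through its seed, the bases near its 5′ end, with sites in messenger RNAs and lowers their level or their translation.

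The mature sequences of miR-204 in RefSeq (GRCh38.p14) are given because they define the treatment, with bases 2 to 8, the seed, in capitals. Both arms lie on the minus strand, the 5p arm at chr9:70810031-70810052 and the 3p arm at chr9:70809993-70810013, and the labels do not say which arm the mimic carried.
hsa-miR-204-5p: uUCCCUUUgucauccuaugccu
hsa-miR-204-3p: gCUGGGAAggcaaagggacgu
Matches to these seeds in kinesin messenger RNAs were not analysed here.

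Each array held 43376 spots other than controls. Those that the software marked as well above background numbered 27424 for control and 28236 for miR-204 on the first array, and 29024 and 25284 on the swapped one. A probe was counted where 1 of the RNAs, control or miR-204, was marked so on both arrays, and a gene value is the mean over its counted probes. All values are log2 ratios of miR-204 over control, so that -1 is a level 2-fold lower in the miR-204 RNA. By this rule 18585 gene names were counted, among them 34 of the 38 kinesins, on 45 probes. Each of the 34 had at least 1 probe so marked in every one of the 4 channels. Of 7 marker genes listed for HEK-293, 6 had such a probe, namely NEFL, NEFM, VIM, KRT8, KRT18 and CDH2, while the kidney transcription factor gene PAX2 was well above background in no channel. None of 5 markers of leukocytes, endothelium, hepatocytes, fibroblasts and T cells had such a probe. In RNA from whole cultures, fewer cells of a kind and less RNA per cell cannot be told apart.

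No counted kinesin gene had a mean past 2-fold between miR-204 overexpressing and control cells. This is near the small shares of all gene names past that fold, so it is not particular to kinesins. With a mean past the fold and the same sign on both arrays, 0 of 34 kinesins were lower at 2-fold, where 0.447% of all gene names were, and 0 were higher, where 0.145% were. At 1.5-fold, 2 of 34 kinesins (5.88%) were lower, beside 2.05% of all gene names, and these were the mitotic KIF14 and the axonal transport motor KIF1A. KIF1A entered this count through a probe that passed the filter in the control RNA alone. With probes above background in every channel the count was 1 of 34, KIF14, beside 1% of gene names. At the same fold, 0 of 34 were higher, beside 1.44% of all gene names. The 2 genes are too few for a difference from the background share to be read. Most kinesins lay close to 0, and 24 of 34 (70.6%) had a mean log2 ratio within 0.25 of it, beside 73.5% of all gene names. Both arrays gave a lower value in miR-204 overexpressing cells for 9 kinesins (26.5%) and a higher one for 8 (23.5%), while 17 (50%) had opposite signs. Over all gene names these shares were 22.9%, 24.4% and 52.7%. The median mean log2 ratio was -0.02 over the kinesins and 5e-04 over all gene names. Between the arrays, Pearson's r over the 34 kinesins was 0.23 and Spearman's rho 0.18, and over all 18585 gene names they were -0.02 and -0.05. The kinesin values include KIF1A, far out at -1.04 and -0.90 through a probe near background, and are not given without it. A better agreement of kinesins than of all gene names can therefore not be read from them. These are correlations across genes that share the same 2 arrays, and genes are not replicates.

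**Figure D1:**
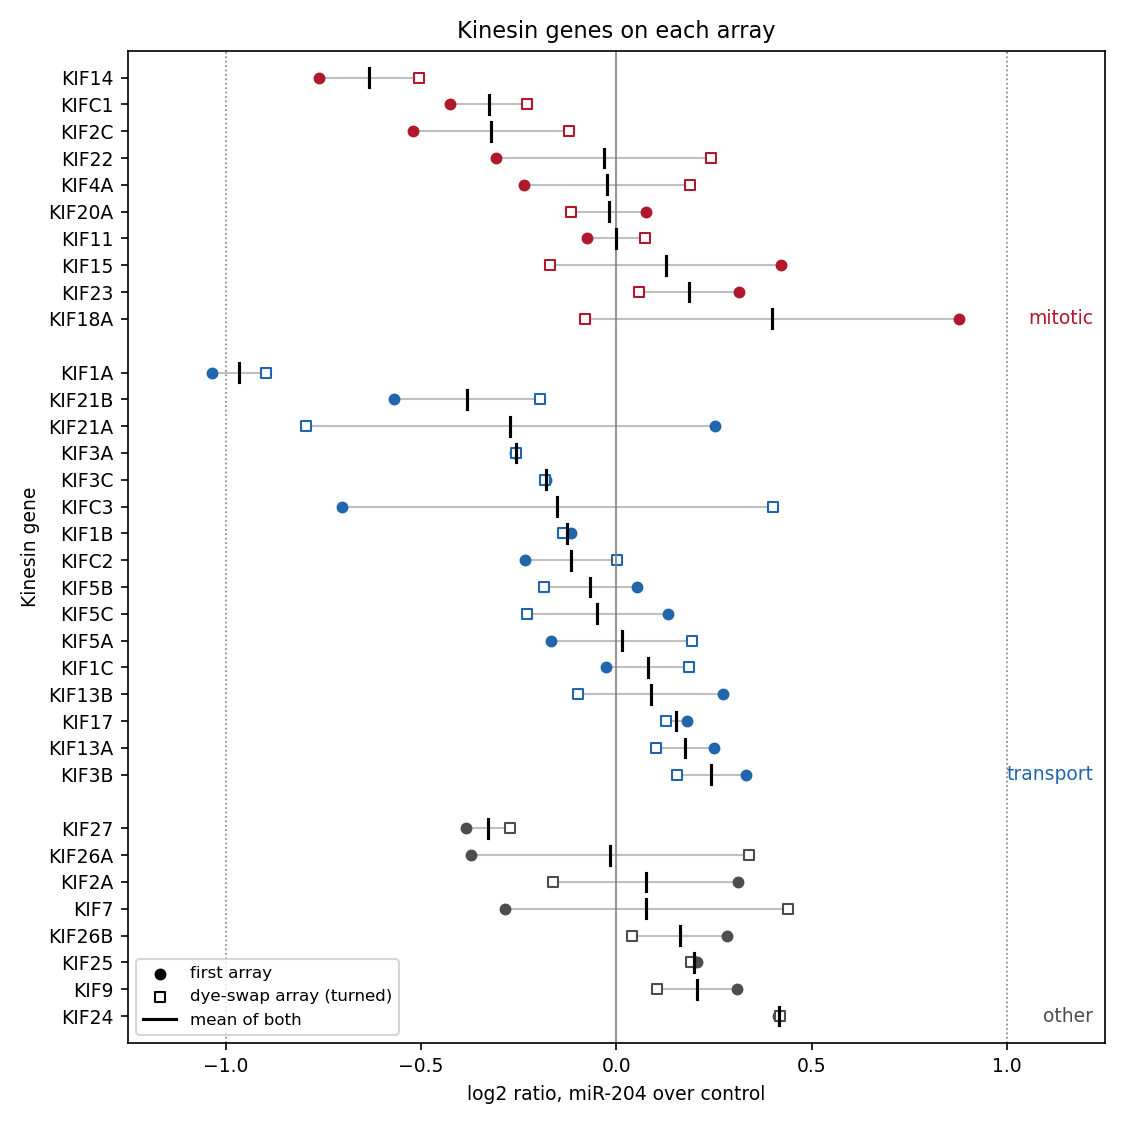
Log2 ratio of miR-204 over control (x axis) for each of the 34 counted kinesin genes (y axis), grouped as mitotic, transport and other and ordered by the mean. Filled circles are the first array, open squares the dye-swap array after its sign was turned, black bars the mean of both, and dotted lines mark 2-fold. No mean reaches a dotted line. The lowest points are KIF1A at -0.97, which averages in a probe near background, and KIF14 at -0.63.

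The mitotic and the transport kinesins were compared by class, and the arrays did not give one sign for the difference between them. The mitotic kinesins were 11 genes, of which 10 were counted, and the transport kinesins were 16 genes, all counted. The median log2 ratio of the mitotic kinesins was -0.16 on the first array, -0.10 on the dye-swap array and -0.02 in the mean. That of the transport kinesins was -0.07, -0.12 and -0.09. Mitotic minus transport was -0.08 on the first array, 0.02 on the dye-swap array and 0.07 in the mean of both. A median of gene means need not lie between the medians of the arrays, since genes with opposite signs move to the centre. Among mitotic kinesins 3 were lower on both arrays, 1 was higher on both and 6 had opposite signs, and among transport kinesins these numbers were 5, 3 and 8. The 8 counted kinesins of other or mixed roles had a median of 0.12 in the mean, with 4 higher on both arrays and 1 lower on both.

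**Figure D2:**
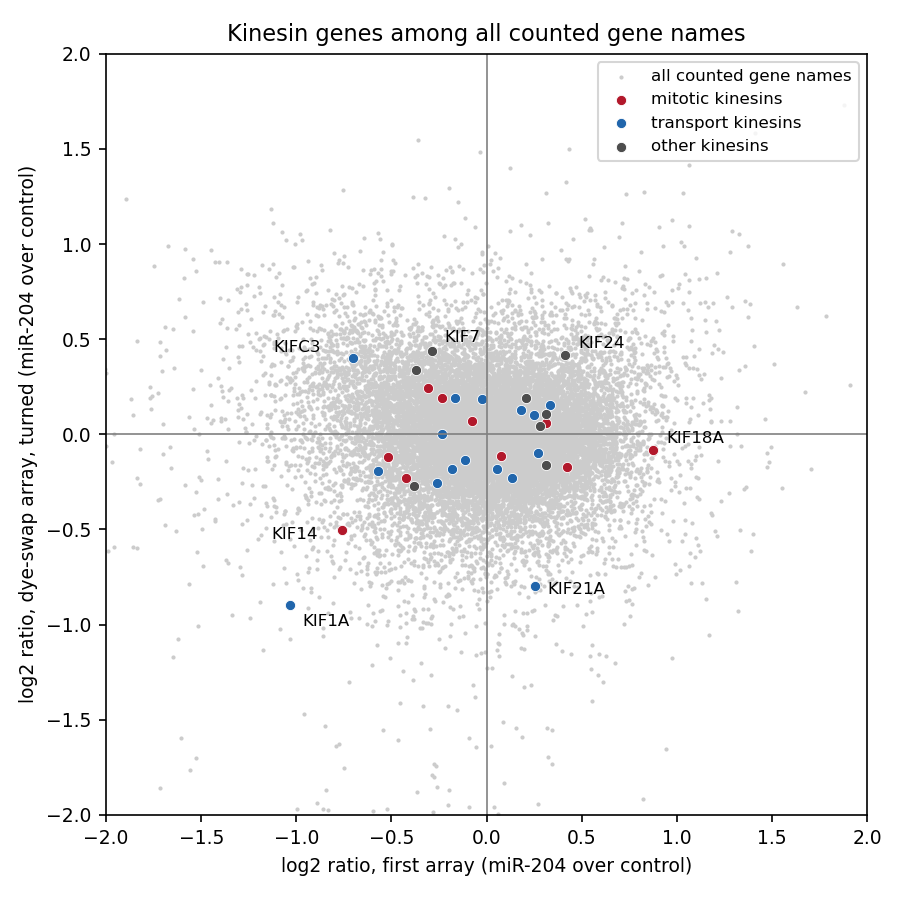
Log2 ratio of miR-204 over control on the first array (x axis) and on the dye-swap array after turning its sign (y axis), for all 18585 counted gene names in grey, with those past 2 on an axis not drawn, and for the 34 kinesins in colour by class. KIF14 lies low on both arrays, as does KIF1A through a probe near background, KIF24 lies at 0.41 and 0.42, and KIFC3, KIF18A and KIF21A lie far out on 1 array with the opposite sign on the other.

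KIF14, a motor of the midbody that takes part in cytokinesis, had the lowest value of the mitotic kinesins. Its single probe lies at chr1:198789212-198789271 on the minus strand of hg18. The processed signal, in units of the scanner after background and dye correction by the authors, was 88.2 in the control and 51.7 in the miR-204 RNA of the first array, and 103.8 and 73.3 in the dye swap. The miR-204 signal was thus the lower one in both dye orientations. Processed signals are not on one scale between the arrays, so they are compared only within an array. After quantile normalization the log2 ratio was -0.76 and -0.50, with a mean of -0.63 (0.645-fold), and 1.86% of all gene names lay at or below it. Under 2 alternative corrections that start from the uncorrected spot signals and apply loess within each array, KIF14 remained lower but was no longer past 1.5-fold, with -0.36 after normexp background correction and -0.28 without any.

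Another pair of mitotic kinesins, KIFC1 and KIF2C, had lower values on both arrays by smaller amounts. KIFC1, a minus-end directed motor that bundles spindle microtubules and clusters centrosomes, had log2 ratios of -0.43 and -0.23 (mean -0.33), with signals of 525 and 387.1 for control and miR-204 on the first array and then of 299.8 and 256.9 in the dye swap. KIF2C, which depolymerizes microtubule ends at the kinetochore, had log2 ratios of -0.52 and -0.12 (mean -0.32), with signals of 9613 and 6694 and then of 6138 and 5682. For both genes each array gave the lower signal in the miR-204 RNA. The share of gene names at or below the mean was 9.04% for KIFC1 and 9.39% for KIF2C.

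The plus-end motors of spindle microtubules had opposite signs on the arrays. KIF11, the motor known as Eg5 that separates the poles, had log2 ratios of -0.07 and 0.07 (mean -9e-04), and its 2 probes gave means of -0.03 and 0.03. KIF15, which acts beside KIF11 on spindle microtubules, had 0.42 and -0.17 (mean 0.13). KIF18A, which dampens the movements of chromosomes at the metaphase plate, had the highest mean of the mitotic class at 0.40, but it came from 1 array only, with 0.88 on the first and -0.08 on the dye-swap array. Its signals were 220.7 in the control and 402.5 in the miR-204 RNA of the first array, and 205.7 and 194.8 in the dye swap. These signals were not put on one scale between the arrays, so which of them stood apart cannot be read from them.

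Motors of the central spindle and of chromosome arms lay near 0. KIF23, the motor of the centralspindlin complex, was the only mitotic kinesin higher on both arrays, at 0.31 and 0.06 (mean 0.19). KIF20A, which carries the chromosomal passenger complex to the midzone, had 0.08 and -0.12 (mean -0.02). KIF20A was printed as 10 spots and so gives the spotting error within an array, which was an SD of 0.0329 on the first array and 0.0285 in the dye swap, before quantile normalization. Its spots ranged from 0.02 to 0.12 on the first array and from -0.15 to -0.05 on the dye-swap array, so the arrays did not overlap. The difference between arrays was larger than the spread between spots, which was known here for this kinesin alone. KIF4A, a chromosome-bound motor that shortens midzone microtubules, had -0.24 and 0.19 (mean -0.02), and KIF22, another motor on chromosome arms, had -0.31 and 0.24 (mean -0.03). The position of the KIF22 probe in the files is on an unplaced part of chromosome 16 of hg18. KIF2B, a relative of KIF2C, was not counted, since its probe was well above background in no channel.

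CENPE, the kinetochore motor that brings chromosomes to the metaphase plate, is a mitotic kinesin whose name lies outside the rule. Its probe was bright but was left out with all other probes that had an outlier flag, since 2 of its 10 spots were flagged. Using its other 8 spots, its normalized signals were 2269 in the control and 3382 in the miR-204 RNA of the first array, and 2317 and 2492 in the dye swap. The log2 ratios were 0.58 and 0.11 (mean 0.34), higher in the miR-204 RNA on both arrays. MPHOSPH1, the older name of the cytokinesis motor KIF20B, had 0.53 and -0.04 (mean 0.25), and STARD9, a centrosomal kinesin, had 0.23 and -2e-04 (mean 0.12). Neither had one sign on both arrays, and none of these 3 genes enters the counts above.

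Among the transport kinesins KIF1A, which carries synaptic vesicle precursors along axons, had a gene mean of -0.97, which averages in a probe that gives only a bound and so is not a measured size. Its gene values were -1.04 on the first and -0.90 on the dye-swap array, but its 2 probes gave them in different ways. The probe at chr2:241302523-241302582 had signals of 352.3 in the control and 122.5 in the miR-204 RNA of the first array, and 128.1 and 181.9 in the dye swap. This probe was marked in each of the 4 channels and had opposite signs, -1.52 and 0.50 (mean -0.51). The probe at chr2:241304313-241304372 had signals of 34.5 and 23.9 on the first array and of 28.9 and 6.85 on the dye-swap array. For miR-204 it was near background on each array, below the limit the software sets, so its log2 ratios of -0.55 and -2.30 (mean -1.43) stand for a bound. On each array the limit was the probe's own miR-204 signal or the lowest one well above background, whichever was higher. With average intensities quantile normalized between the arrays, the bound was at least 1.31-fold lower in the miR-204 RNA. No other of the 45 counted kinesin probes had a mean past 2-fold in either direction with one sign on both arrays. The agreement of the KIF1A gene value between arrays thus came from averaging probes that did not agree. With the probe that was bright in all channels taken alone, KIF1A was not called at 1.5-fold, and KIF14 had the lowest mean of the kinesins.

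**Figure D3:**
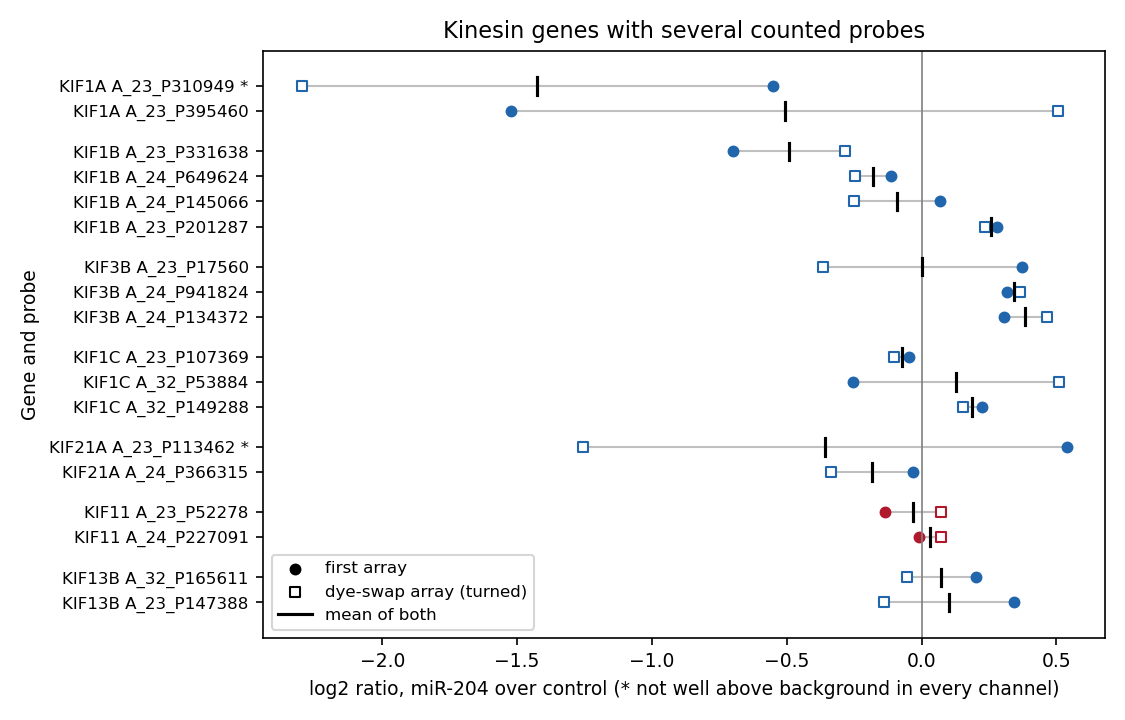
Log2 ratio of miR-204 over control (x axis) for each counted probe (y axis) of the 7 kinesin genes with more than 1 counted probe, mitotic in red and transport in blue. Filled circles are the first array, open squares the dye-swap array after turning its sign, bars the mean, and an asterisk marks a probe that some channel did not have well above background. The KIF1A probes differ by 0.92 in the mean, while the KIF11 probes differ by 0.06.

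Probes of the same gene did not always give the same value. For KIF1B, KIF3B, KIF1C and KIF11 the probe means spanned more than the gene's distance from 0. For KIF1A, KIF21A and KIF13B they did not. In 4 of the 7 genes with several counted probes, the probe means spanned over 0.25. These were KIF1B, KIF3B, KIF1C and KIF1A, the last with a probe near background. The other 27 of the 34 counted kinesins rest on 1 counted probe. KIF1B, which moves mitochondria and vesicles, had 4 probes with means from -0.49 to 0.26, and its gene values of -0.12 and -0.14 (mean -0.13) average over them. For KIF1C, a motor of vesicles and integrins, 3 probes ran from -0.07 to 0.19, with gene values of -0.03 and 0.19 (mean 0.08). For KIF21A, which slows microtubule growth at the cell cortex, the 2 probes had means of -0.36 and -0.18. The gene values of KIF21A were 0.25 and -0.80 (mean -0.27), but its dimmer probe was not well above background for miR-204 on the swapped array, so that the second value is not a measured size. Its brighter probe gave -0.03 and -0.33, lower on both arrays. KIF13B, a motor that carries membrane receptors, had 2 probes that differed by 0.03, with gene values of 0.27 and -0.10 (mean 0.09).

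The heterotrimeric kinesin that drives transport within cilia is made of KIF3A, KIF3B and an accessory subunit, and KIF3A can also pair with KIF3C. KIF3A was lower on both arrays by nearly the same amount, at -0.26 and -0.26 (mean -0.26), with signals of 3242 in the control and 2704 in the miR-204 RNA of the first array and of 2288 and 1900 in the dye swap. KIF3C was also lower on both, at -0.18 and -0.18. KIF3B was higher on both, at 0.33 and 0.15 (mean 0.24). Its 3 probes had means of 0.002, 0.34 and 0.38, and the 2 brighter probes were higher on each array. KIF3A and KIF3B therefore lay on opposite sides of 0, with none of these genes past 1.5-fold, and the accessory subunit gene KIFAP3 had a mean of 0.01. KIF17, a further motor of cilia and dendrites, had 0.18 and 0.13 (mean 0.15).

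The conventional kinesin heavy chains, which carry mitochondria and vesicles with the kinesin light chains, all lay near 0 with opposite signs on the arrays. KIF5B, the heavy chain of most tissues, had 0.05 and -0.19 (mean -0.07). The neuronal KIF5A had -0.17 and 0.19 (mean 0.01), and KIF5C had 0.13 and -0.23 (mean -0.05). Of the remaining transport kinesins, KIF21B, a neuronal motor related to KIF21A, was lower on both arrays at -0.57 and -0.19 (mean -0.38), with signals of 284.9 and 193.1 and then 171.1 and 150.9. KIF13A, which moves endosomes, was higher on both at 0.25 and 0.10 (mean 0.18), but had a mean of -0.02 after normexp and loess. The minus-end directed KIFC2 had -0.23 and 0.003 (mean -0.11). KIFC3, which acts at cell junctions, showed one of the widest gaps between arrays, at -0.70 and 0.40 (mean -0.15).

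Among the kinesins of other roles KIF24, which restrains the growth of cilia at the mother centriole, had the highest mean of all kinesins in this setting. Its log2 ratios were 0.41 and 0.42 (mean 0.42), with signals of 80.2 in the control and 106.9 in the miR-204 RNA of the first array and 65.1 and 87.3 in the dye swap. The miR-204 signal was the higher one on each array, and 95.9% of gene names lay at or below this mean. After normexp and loess the mean was 0.17, and with loess alone 0.20, below KIF18A at 0.23 and 0.26. KIF9, a motor of cilia and flagella, had 0.31 and 0.10 (mean 0.21). KIF25 had 0.21 and 0.19 (mean 0.20), and KIF26B had 0.28 and 0.04 (mean 0.16). KIF27, related to the Hedgehog pathway kinesin KIF7, was lower on both arrays at -0.38 and -0.27 (mean -0.33). Its sign turned to a mean of 0.17 when its dim probe, outside the counted ones, was averaged in. KIF7 itself, which works at the tip of the primary cilium, had -0.29 and 0.44 (mean 0.08). KIF2A, a microtubule depolymerase of spindle poles and axons, had 0.31 and -0.16 (mean 0.08), and KIF26A had -0.37 and 0.34 (mean -0.02). KIF6, KIF12 and KIF19 were not counted, as none of their probes was well above background on both arrays in either RNA.

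Of the genes that work with kinesins, none in the lists below passed 1.5-fold, where 2.05% of all gene names were lower and 1.44% higher. The shares of all gene names lower and higher on both arrays, 22.9% and 24.4%, are the background for the signs. Of 12 light chain and cargo adaptor genes counted, 2 were lower (16.7%) and 2 higher (16.7%) on both arrays, and the median of their means was -0.10. The one farthest from 0 was MAPK8IP1, the JNK scaffold that links cargo to kinesin light chains, at 0.13 and 0.68 (mean 0.41). Of 14 spindle and cytokinesis partners, 6 were lower (42.9%) and 1 higher (7.14%) on both arrays, and the median was -0.11. The lowest were AURKB (mean -0.37) and INCENP (mean -0.31), both of the chromosomal passenger complex, and AURKB owed its mean to the first array, with -0.74 there and -5e-04 on the dye-swap array. Of 18 genes of dynein and dynactin, the motor that runs towards the minus end, 5 were lower (27.8%) and 4 higher (22.2%) on both arrays, with a median of -0.08. The heavy chain gene DYNC1H1 was the lowest of these, at -0.76 and -0.10 (mean -0.43). Of 13 proliferation genes, 2 were lower (15.4%) and 0 higher on both arrays, and 11 had opposite signs, CDC20 (-0.84 and 0.04) and MKI67 (-0.70 and 0.08) among them. The share of dividing cells was not measured, and its part in the mitotic kinesin values was not tested.

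The mitotic kinesins shared letters in their promoters that the rule did not use. Promoters of RefSeq (GRCh38.p14), from 250 bases before to 50 after the start, were found for 11 mitotic, 11 transport and 8 other kinesins, and were searched on both strands. A kinesin was taken to hold the letters when any of its listed promoters did, while the shares of all are of single promoters. A gene with several promoters thus had more places to match. CCAAT, the letters of the box bound by NF-Y, was found in 8 of 11 mitotic, 4 of 11 transport and 3 of 8 other kinesins, beside 34.6% of 35116 promoters. TTTGAA, the letters of the cell cycle genes homology region that represses genes outside of division, was found in 7 of 11 mitotic, 1 of 11 transport and 0 of 8 other kinesins, beside 15.2% of all. Both were found in 6 of 11 mitotic, 1 of 11 transport and 0 of 8 other kinesins, beside 5.9% of all. TATAAA was found in 1 mitotic, 0 transport and 1 other kinesin, beside 11.5%. In the sequences shown the matches do not overlap. Such a match is a description and not a site. The 120 bases just before the start are shown for 3 mitotic kinesins that hold both, with the matches in capitals (ATTGG and TTCAAA are CCAAT and TTTGAA on the other strand). KIF18A lies at chr11:28108157-28108276 on the minus strand, KIF23 at chr15:69414229-69414348 and KIF11 at chr10:92593010-92593129, both on the plus strand.
KIF18A: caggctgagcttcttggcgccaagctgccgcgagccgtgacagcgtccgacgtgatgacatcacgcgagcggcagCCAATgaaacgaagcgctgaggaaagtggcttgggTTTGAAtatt
KIF23: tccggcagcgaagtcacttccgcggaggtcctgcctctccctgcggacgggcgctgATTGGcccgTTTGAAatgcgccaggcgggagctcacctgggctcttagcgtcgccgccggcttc
KIF11: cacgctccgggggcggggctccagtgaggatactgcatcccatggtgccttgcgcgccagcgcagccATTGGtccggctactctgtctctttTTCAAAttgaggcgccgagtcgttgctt
The mean log2 ratios of these 3 genes were 0.40, 0.19 and -9e-04, and those of KIF14 and KIFC1, whose promoters also held both, were -0.63 and -0.33. KIF4A and KIF5B, the other kinesins whose promoters held both, had means of -0.02 and -0.07. The kinesins that share these letters thus lay on both sides of 0. Among them KIF23 alone was higher on both arrays, KIF14 and KIFC1 were lower on both, and the others had opposite signs.

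**Figure D4:**
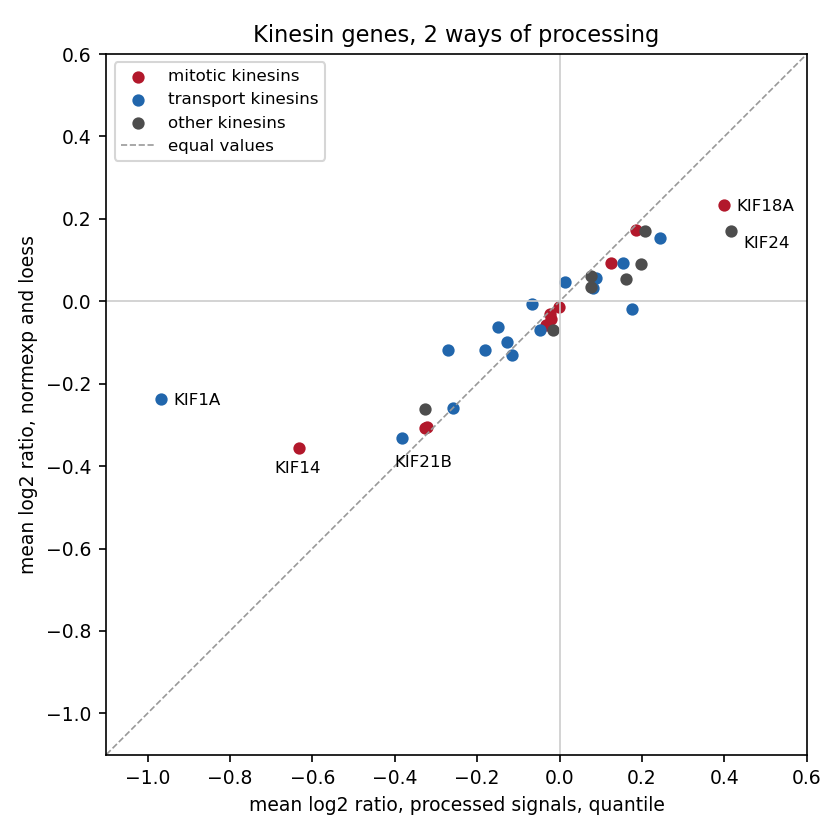
Mean log2 ratio of miR-204 over control for the 34 counted kinesins from the processed signals after quantile normalization (x axis) and from the spot signals after normexp background correction and loess (y axis). Points are genes in the colour of their class and the dashed line marks equal values. KIF1A moves from -0.97 to -0.24 and KIF14 from -0.63 to -0.36.

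How far the lowest kinesins lay from 0 moved with the processing. After normexp and loess, 0 of 34 kinesins were lower at 1.5-fold, where 0.328% of gene names were. KIF1A moved to -0.24 and KIF14 to -0.36 under that setting, both still below 0. The t-test that the methods name was also run on the miR-204 against the control channels, without their pairing on an array. Limma's test was run on the ratios of the 2 arrays. The arrays are 1 replicate, so neither test compares the conditions across cultures. The methods' t-test passed 5 of 45 kinesin probes before adjustment, beside 6.42% of all counted probes, and 0 after Benjamini-Hochberg adjustment. Limma passed 2 before adjustment, the KIF14 probe and the KIF1A probe near background, beside 4.72% of all, and 0 after it.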

How the data were processed

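RNA of 1 miR-204 and 1 control transfection of HEK-293 cells was measured on 2 arrays, a dye swap counted as 1 replicate. Signals were read by the authors with version 9.5.3.1 of Agilent's Feature Extraction, and the deposited processed signals are intensity values corrected for background and dye. The deposited mean and local background signals are intensity values without correction. The deposited software ratio is a log10 value, red over green, and the authors' series table holds log2 ratios of miR-204 over control that they quantile normalized. The software's p-values of the log ratio were not used.

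Log2 processed signals were quantile normalized across the 4 channels with limma 3.58.1 in R 4.3.3. Control spots and 128 probes with an outlier flag on any spot were left out. This removed 82 of 25352 probes above background (0.323%), among them 70 of 213 printed as 10 spots, and no kinesin probe. Spots of a probe were averaged, and counted probes of a gene name were averaged. Positions of probes were taken from the files (hg18). The roles that split the kinesins into classes came from known function. The steps were tested on simulated data over 25270 probes, where 200 of 200 probes changed by 2 on the log2 scale, more than any kinesin gene mean, were recovered and 0 unchanged ones were called. Recovery of smaller changes was not simulated. Precision is limited by the number of arrays.

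The kinesins and the lists were chosen with earlier results of these data known. Full values were given for kinesins past 1.5-fold, for the 5 lowest and 5 highest, and for a list by role. The value of CENPE was added after the data were seen. Alternatives were tried for background correction and normalization, the source of the values, filters, flags, the gene summary, the arrays used, the classes, the threshold and the test.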

Additional observations from a re-analysis of the deposited data

How the results depend on the processing

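Of the 34 kinesins counted, 2 were lower at 1.5-fold. This number was 0 after normexp and loess, beside 0.328% of gene names, and 0 without background correction and with loess, beside 0.355%. It was 1 when every channel had to be above background, beside 1%, and 1 with the brightest probe of each gene, beside 2.07%. It was also 1 with KIF1A left out, which was chosen after seeing the data. KIF14 was the gene left in the last 3. With 1 array left out, the number lower at 1.5-fold was 2 to 3, beside 3.45% to 8.44% of gene names. That lower at 2-fold was 0 to 1, beside 0.764% to 2.07%, and that higher at 1.5-fold 0 to 1, beside 2.95% to 6.1%. On the dye-swap array alone the genes lower at 1.5-fold were KIF1A and KIF21A, both with a probe near background, and KIF14 was not among them at -0.50. Without the dye-swap array the gene lower at 2-fold was KIF1A and the gene higher at 1.5-fold was KIF18A. Limma before adjustment with 2-fold, which counts probes, gave 1 lower, the KIF1A probe that has only a bound. Without the test, 1 of 45 kinesin probes was lower at 2-fold, beside 0.518% of all counted probes. The mitotic median was -0.16 to -0.10 with 1 array left out, and 0.0227 in place of -0.0217 with the series table. Mitotic minus transport was -0.0842 to 0.0192 with 1 array left out, and was between 0.03 and 0.10 under every alternative that used both arrays. Apart from the numbers of genes and probes, the cause of these shifts was not tested. The transport median stayed below 0 under every alternative. No analysis paired by culture was possible because there is 1 replicate. The ratios were formed within each array, and limma's test used them, while the methods' t-test took the channels without that pairing. Of the values of named kinesins under the alternatives, 316 moved by less than the spread between arrays and 35 by more. That spread is the SD over the 2 arrays, so a value with 1 array left out could only fall among the 316. The software ratio repeated the values of the processed signals, and choosing the brightest probe cannot move a gene with 1 counted probe. The 2 numbers are therefore no measure of stability. A probe near background has only a bound, as for KIF1A.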
